A study of Homo sapiens with 17 samples.

Results

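The 6 genes of mitochondrial DNA that encode cytochrome b (MT-CYB, ENSG00000198727), 3 subunits of cytochrome oxidase (MT-CO1, ENSG00000198804; MT-CO2, ENSG00000198712; MT-CO3, ENSG00000198938) and 2 subunits of ATP synthase (MT-ATP6, ENSG00000198899; MT-ATP8, ENSG00000228253) were followed in 17 libraries. The rule that picked them uses the respiratory complex they belong to and no measured value. Earlier results of these data were known when they were chosen. They are 6 of the 13 protein-coding genes of mitochondrial DNA, the other 7 being subunits of complex I. All 6 passed the minimum of a mean count of 20 in each library type at 36 h, where 9016 genes were tested. At 72 h 3 of them, MT-CO2, MT-ATP6 and MT-ATP8, were counted by the authors and all 3 were among the 10896 genes tested.

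Mitochondrial DNA is a small circle inside the mitochondrion that is transcribed as long precursors, which are then cut into separate messages and translated by the mitochondrion's own ribosomes. Its proteins are membrane core subunits of the respiratory chain. Cytochrome b belongs to complex III, which passes electrons to cytochrome c, cytochrome oxidase is complex IV, which passes them on to oxygen, and ATP synthase is complex V, which uses the resulting proton gradient to make ATP. The remaining subunits of these complexes come from nuclear genes and are made by cytosolic ribosomes.

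The libraries come from HEK293 cells, a human embryonic kidney line, that were electroporated with Cas9 or with dCas9, a form that binds DNA but does not cut it, each in complex with a guide to intron 12 of JAK2. The labels give 300 pmol of nuclease and 300 pmol of guide for both arms, so the control carried the same protein load and guide. At 36 h there were 3 Cas9 (a, b, c) and 2 dCas9 (d, e) mRNA libraries, with footprint libraries for Cas9 a and c and for dCas9 d and e. At 72 h there were 2 mRNA libraries (a, b) and 2 footprint libraries (e, f) for each nuclease. The guide was synthetic at 36 h and transcribed in vitro at 72 h, and the aligner and annotation also differed, so a difference between time points cannot be told apart from these. Each replicate was a plate that pooled 4 small electroporations of 1 cell line, so P values measure the spread between such plates of 1 line. Lysates were divided between both library types at both times, but the letters of mRNA and footprint libraries match at 36 h only.

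Ribosome footprints are the stretches of message that a ribosome shields from nuclease, and their count follows how many ribosomes sit on a message. The end of each reading frame is printed because it separates the members counted at both times from those counted at 36 h only. Each line gives the last 30 bases of the annotated coding sequence on the plus strand of hg38, 5′ to 3′, with the final codon, or the base left over after the last full codon, in capitals.

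MT-CO2, chrM:8240-8269: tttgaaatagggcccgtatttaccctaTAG
MT-ATP8, chrM:8543-8572: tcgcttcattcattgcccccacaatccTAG
MT-ATP6, chrM:9178-9207: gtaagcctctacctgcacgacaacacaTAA
MT-CO1, chrM:7416-7445: ttcgaagaacccgtatacataaaatctAGA
MT-CO3, chrM:9961-9990: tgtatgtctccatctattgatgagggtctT
MT-CYB, chrM:15858-15887: taattgaaaacaaaatactcaaatgggccT

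MT-CO2, MT-ATP8 and MT-ATP6 end in a full stop codon that the annotation marks as such. MT-CO1 ends in AGA, and MT-CO3 and MT-CYB end in a single T, which in the cell is completed to a stop by the poly(A) tail, and none of these has an annotated stop codon. At 72 h exactly these 3 had no length and a count of 0 in every library, and so did 5 complex I genes that also lack an annotated stop. The 5 mitochondrial genes with an annotated stop, the 3 members above and MT-ND4L and MT-ND5, were all counted. MT-CYB, MT-CO1 and MT-CO3 were therefore treated as not counted at 72 h, not as absent.

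All 6 genes are single coding exons without introns. The coding sequence of MT-CO1 spans chrM:5904-7445, of MT-CO2 chrM:7586-8269, of MT-ATP8 chrM:8366-8572, of MT-ATP6 chrM:8527-9207, of MT-CO3 chrM:9207-9990 and of MT-CYB chrM:14747-15887. At 36 h the counted lengths were 494 codons for MT-CO1, 360 for MT-CYB, 241 for MT-CO3, 207 for MT-CO2, 206 for MT-ATP6 and 48 for MT-ATP8. MT-ATP8 and MT-ATP6 lie on 1 message and share 46 bases, shown here because the values of both are compared later, with the start codon of MT-ATP6 and the stop codon of MT-ATP8 in capitals.

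Overlap of MT-ATP8 and MT-ATP6, chrM:8527-8572: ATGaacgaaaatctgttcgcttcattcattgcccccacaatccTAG

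Old copies of mitochondrial DNA in the nuclear genome hold stretches identical to these genes. Of all 30-base windows, about the length of a footprint, 71.1% of MT-CO1, 64.7% of MT-ATP6, 51.6% of MT-CO2, 46.6% of MT-ATP8, 46.1% of MT-CO3 and 7.73% of MT-CYB had an exact nuclear copy in hg38. For 50-base windows, the length of an mRNA read, the shares were 50.6%, 46.7%, 28.98%, 8.23%, 30.9% and 1.65%. How the aligners placed reads that fit both sites is not given in the sources used here, and the part of such reads in the levels was not tested.

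Footprint libraries of 36 h held between 689636 and 4868580 counts over genes and those of 72 h between 3183558 and 8864461. The mRNA libraries held 25095505 to 33350952 counts at 36 h and 33040306 to 42825659 at 72 h. The 8 markers of HEK293 cells summed to 730.1 to 1175 CPM (counts-per-million) in mRNA, mostly VIM, while PAX2 stood at 0 to 12 counts. The 10 markers of blood, fibroblast, liver and endothelial cells summed to 4.90 to 10.7 CPM in mRNA, most of it COL1A1, and CD3E was at 0 in every mRNA library. In bulk libraries fewer cells with a message and less message per cell cannot be told apart.

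At 36 h the mRNA levels of the 6 genes were spread over more than an order of magnitude although they come from shared precursors. Per counted codon, in CPM scaled by TMM, MT-CO3 stood at a median of 16.6 (range 16.02 to 17.06 in 5 mRNA libraries) and MT-CO1 at 15.9 (14.1 to 16.3). These ranges overlapped, so the order of the first pair was not resolved. MT-CO2 followed at 8.08 (7.68 to 8.71), MT-ATP6 at 1.80 (1.77 to 2.39), MT-CYB at 0.811 (0.689 to 0.885) and MT-ATP8 at 0.309 (0.254 to 0.413). From MT-CO2 downwards no 2 ranges overlapped.

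Footprint levels per codon at 36 h were closer together. MT-CO1 had a median of 1.33 CPM per codon (0.932 to 2.18 in 4 libraries), MT-CO2 of 1.02 (0.724 to 1.43) and MT-CO3 of 0.676 (0.436 to 1.11). Below them were MT-ATP6 at 0.314 (0.261 to 0.555), MT-CYB at 0.272 (0.237 to 0.394) and MT-ATP8 at 0.209 (0.144 to 0.637). Every neighbouring pair in this order overlapped, while MT-CO1 and MT-CO2 each stayed above MT-ATP6 and MT-CYB in all libraries.

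At 72 h MT-CO2 had the highest mRNA level of the 3 counted members, with a median of 5.05 CPM per codon (2.84 to 7.005 in 4 libraries). MT-ATP6 stood at 1.05 (0.721 to 1.71) and MT-ATP8 at 0.269 (0.202 to 0.429), and the ranges did not overlap. In footprints MT-CO2 again came first at 4.01 (3.37 to 4.56), but MT-ATP8 at 2.37 (2.00 to 2.91) stood above MT-ATP6 at 1.63 (1.22 to 1.87).

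**Figure D1:**
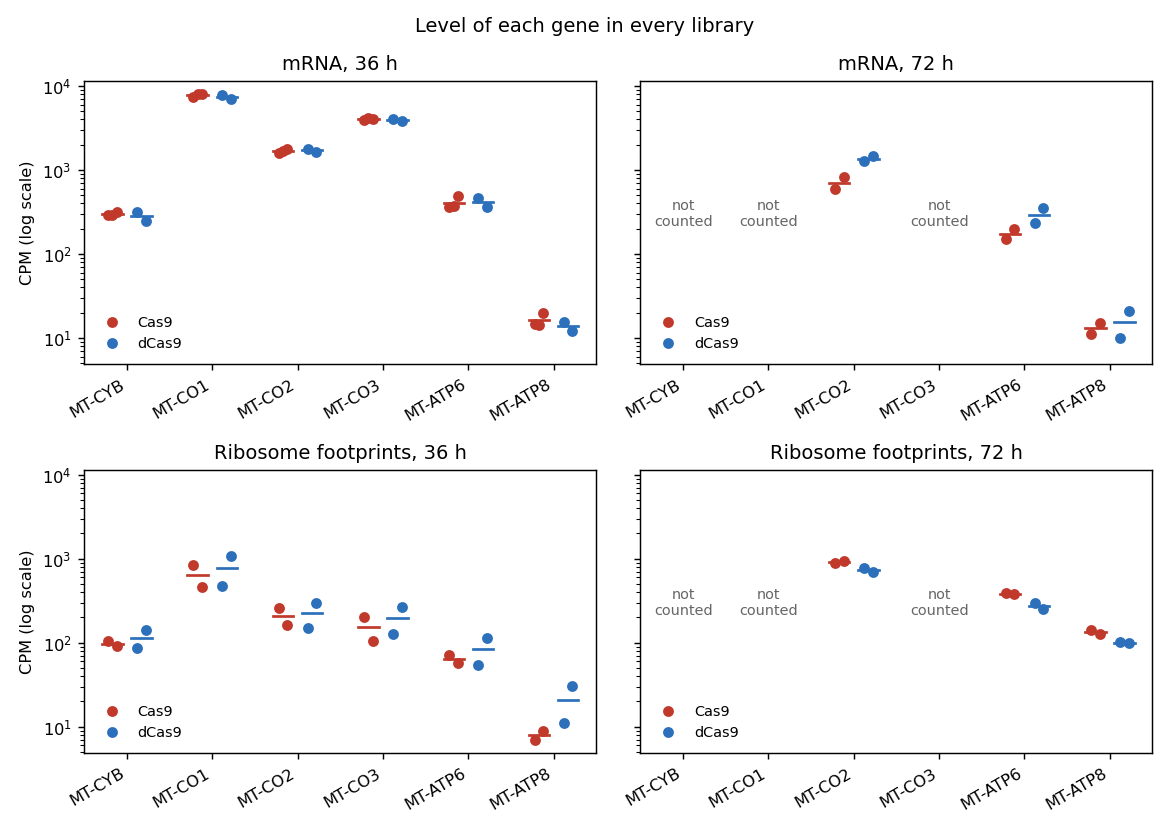
Level of each gene in counts-per-million (CPM, log axis) in every library, for mRNA (top) and ribosome footprints (bottom) at 36 h (left) and 72 h (right). Points are libraries, red for Cas9 and blue for dCas9, and bars are group means. The nucleases overlap for 5 of 6 genes in footprints at 36 h, and at 72 h the blue mRNA points of MT-CO2 lie between 1279 and 1457 CPM, above the red points at 590 and 821 CPM.

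Each message was then compared in footprints against mRNA, taking the mean of both nucleases, to place this ratio relative to the average tested gene. Nearly all tested genes are nuclear and read by cytosolic ribosomes, while these messages are read by mitochondrial ones. Whether both kinds of ribosome were recovered alike was not tested, so a low ratio is not a measure of poor translation. At 36 h 5 of the 6 members were lower in footprints, against 33.2% of all tested genes called lower and 31.1% called higher (edgeR, quasi-likelihood test, false discovery rate 0.1). The median log2 ratio was -2.84 for the members and -0.03 for all tested genes.

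MT-CO3, which completes the core of cytochrome oxidase, held 3862 to 4112 CPM in mRNA and 105 to 267 CPM in footprints. Its log2 ratio of -4.65 (SE 0.199, adjusted P = 8.32e-11) was the lowest of the 9016 genes tested. MT-CO1, the catalytic subunit that carries the oxygen-reducing centre, followed at -3.46 (SE 0.210), rank 4 from the bottom, with 6976 to 8057 CPM in mRNA and 460 to 1079 CPM in footprints. MT-CO2, which accepts electrons from cytochrome c, stood at -3.07 (SE 0.169), rank 14 from the bottom.

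MT-ATP6, the subunit that forms the proton channel, had a ratio of -2.62 (SE 0.185) and MT-CYB, the core of complex III, of -1.54 (SE 0.138). All 4 of these ratios had an adjusted P of 2.59e-07 or less. MT-ATP8, a small membrane subunit, had a ratio of -0.35 (SE 0.335, adjusted P = 0.385), with 12.2 to 19.8 CPM in mRNA and 6.91 to 30.6 CPM in footprints. Its footprint counts at 36 h were 6, 21, 52 and 19, so its ratio is the least precise of the 6. Without the dCas9 footprint library e the ratio of MT-ATP8 was -0.66 (adjusted P = 0.0551) and all 6 members were called lower, as were 35.0% of all tested genes in that fit.

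The 7 mitochondrial genes of complex I, counted in the same libraries, had ratios from -3.94 for MT-ND3 to 0.99 for MT-ND6 at 36 h, with a median of -1.52. MT-ND5 (0.50) and MT-ND6 were higher in footprints, MT-ND1 did not pass the test (-0.11, adjusted P = 0.684) and the other 4 were lower. The lists of nuclear subunits of complexes III, IV and V had medians of 0.15, 0.82 and 0.14 on the same scale.

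At 72 h the 3 counted members spread to both sides of the average gene. MT-CO2 stood at -0.25 (SE 0.0868, adjusted P = 0.0143), MT-ATP6 at 0.52 (SE 0.114, adjusted P = 0.000639) and MT-ATP8 at 3.03 (SE 0.175, adjusted P = 1.61e-10). Against these, 42.4% of all tested genes were called lower and 37.1% higher. MT-ATP8 ranked 74 from the top of 10896 genes, with footprint levels of 98.1 to 142 CPM and mRNA levels of 9.91 to 21.0 CPM. MT-ATP6 lies on the same message, yet its median mRNA level per codon was 3.91 times that of MT-ATP8. The ratio of MT-ATP8 can thus not be read as ribosome load alone, and the part of uneven read counting in it was not tested. Without the Cas9 mRNA library b the ratio of MT-CO2 was -0.08 and no longer passed (adjusted P = 0.390).

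**Figure D2:**
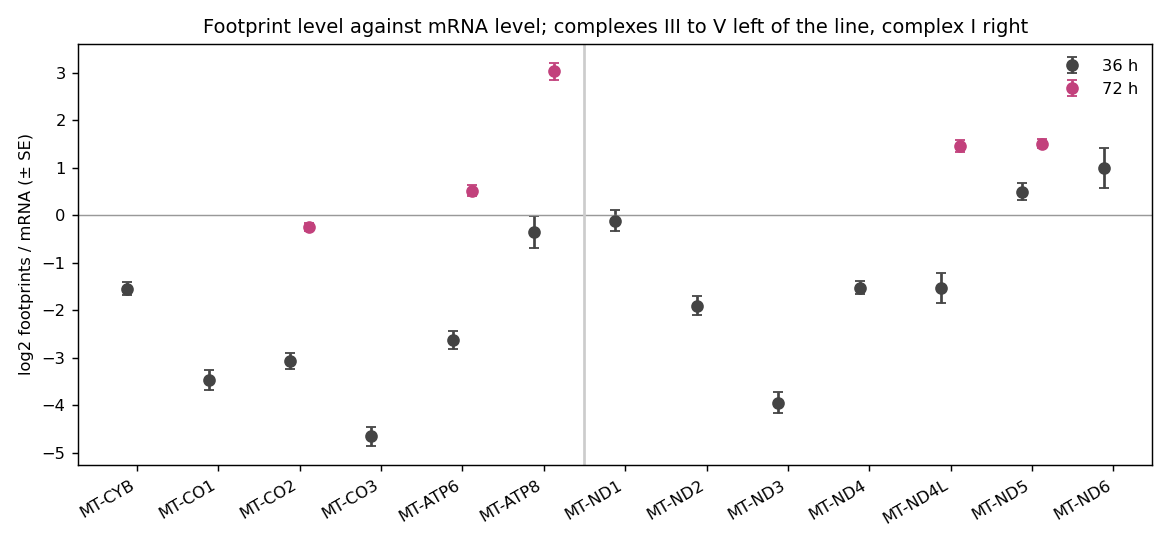
Log2 ratio of footprint to mRNA level (vertical axis, ± SE) for the 6 genes of complexes III to V and, right of the line, the 7 of complex I, at 36 h (dark) and 72 h (pink). Genes without a pink point were not counted at 72 h. MT-CO3 lies lowest at -4.65 at 36 h, and MT-ATP8 lies highest at 3.03 at 72 h.

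MT-ATP8 and MT-ATP6 share a message, so their levels per codon can be set side by side within each library. In mRNA at 36 h MT-ATP8 stood at 0.175, 0.165 and 0.173 of the level of MT-ATP6 in Cas9 a, b and c and at 0.147 and 0.143 in dCas9 d and e. At 72 h the mRNA ratio was 0.321 and 0.320 in Cas9 a and b and 0.177 and 0.250 in dCas9 a and b. In every mRNA library the shorter frame thus held fewer reads per codon than the longer one, by 3.12 to 6.98 times.

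In footprints at 36 h the ratio was 0.415 and 0.668 in Cas9 a and c and 0.882 and 1.15 in dCas9 d and e. At 72 h it was 1.55 and 1.43 in Cas9 e and f and 1.48 and 1.63 in dCas9 e and f, so all 4 libraries had more footprints per codon on MT-ATP8. The mRNA ratio was higher in every Cas9 library than in every dCas9 library at each time, but the exact two-sided permutation test gave P = 0.2 at 36 h and 0.333 at 72 h. These are the smallest P values that the test can give with so few libraries. The ratio was chosen for this test after its values were seen.

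**Figure D3:**
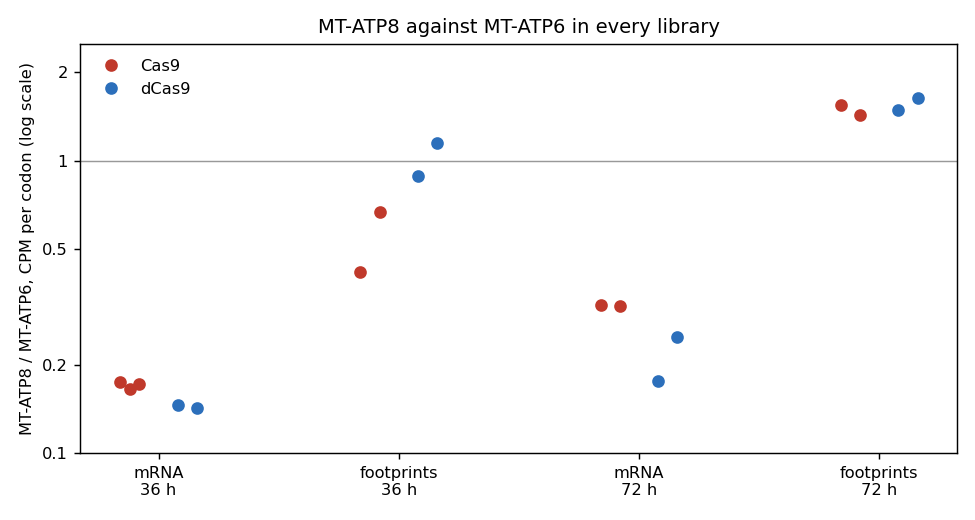
Level of MT-ATP8 divided by that of MT-ATP6, both in CPM per counted codon (log axis), in each of the 17 libraries by library type and time, red for Cas9 and blue for dCas9. The line marks equal levels. The mRNA points lie between 0.143 and 0.321, and the footprint points at 72 h between 1.43 and 1.63.

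Cas9 was then compared with dCas9 within each time point, which asks whether a cut in nuclear DNA goes along with a change in these messages. At 36 h no member passed the false discovery rate of 0.1 in mRNA, footprints or translational efficiency, the last being the change in footprints minus the change in mRNA. Nor did any tested gene, so that 0.0% of genes were called in each comparison by edgeR. At an unadjusted P below 0.05 there were 26 genes for mRNA, 862 for footprints and 568 for translational efficiency, and none of the 6 members was among them. With each library type fitted alone there were 422 for mRNA and 188 for footprints, again without a member. DESeq2 called 0 genes in mRNA, 46 in footprints and 1 in translational efficiency, none of them a member. It gave MT-ATP8 footprints no adjusted P (unadjusted P = 0.0474).

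In mRNA at 36 h MT-CO1 stood at 7412, 7989 and 8057 CPM with Cas9 and at 7879 and 6976 CPM with dCas9. Its log2 change was 0.07 (95% interval -0.41 to 0.55, from the SE), and 0.08 (SE 0.0883) with mRNA fitted alone. MT-CO3 varied least, with 3908, 4112 and 4046 CPM with Cas9 and 4004 and 3862 CPM with dCas9 (log2 change 0.03, interval -0.38 to 0.44). For all 6 genes the nucleases overlapped in mRNA, whereas 16.9% of all tested genes did not overlap. The changes of the other 4 lay between -0.03 for MT-CO2 and 0.23 for MT-ATP8.

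Footprints at 36 h did not separate by nuclease for 5 of the 6 members. MT-CO1 stood at 838 and 460 CPM in Cas9 a and c and at 476 and 1079 CPM in dCas9 d and e. MT-CO2 stood at 259 and 162 CPM with Cas9 and at 150 and 296 CPM with dCas9, and MT-CO3 at 200.3 and 105 CPM and at 126 and 267 CPM. In each of these, Cas9 a and dCas9 e were high and Cas9 c and dCas9 d were low.

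MT-ATP6 showed the same arrangement, at 71.4 and 57.8 CPM with Cas9 and 53.8 and 114 CPM with dCas9, as did MT-CYB, at 105 and 90.8 CPM and at 85.4 and 142 CPM. The 2 libraries with high values, Cas9 a and dCas9 e, are those with the fewest counts in all, 957811 and 689636, against 2514325 and 4868580 for Cas9 c and dCas9 d. The part of depth in these levels was not tested.

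MT-ATP8 was the 1 member whose footprints did not overlap, at 6.91 and 8.999 CPM with Cas9 and 11.0 and 30.6 CPM with dCas9, against 30.4% of all tested genes without overlap. Its log2 change of -1.03 (SE 0.566, adjusted P = 0.578) rested on 6 to 52 counts and did not pass. Its mean of 24.5 counts passed the minimum of 20 through the dCas9 libraries, with means of 13.5 for Cas9 and 35.5 for dCas9. The footprint changes of the other 5 lay between -0.29 and 0.00 on the log2 scale, and all 5 turned positive without the dCas9 footprint library e (0.17 to 0.43) or the Cas9 footprint library c (0.03 to 0.35). Without the dCas9 footprint library d, MT-CO1 (-0.77, adjusted P = 0.0578), MT-CO3 (-0.91, adjusted P = 0.0536) and MT-ATP8 (-1.88, adjusted P = 0.0748) were called lower, as were 4.29% of all tested genes, with 5.89% called higher. That fit has 1 dCas9 footprint library, which is assumed to vary like the other groups, and the mean count of MT-ATP8 in its footprint libraries is 15.3.

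In translational efficiency at 36 h the log2 changes ran from -1.26 for MT-ATP8 (SE 0.669, adjusted P = 0.810) to 0.03 for MT-CO2, with a median of -0.24 against 0.01 for all tested genes. Without the dCas9 footprint library d the changes ran from -2.11 for MT-ATP8 to -0.53 for MT-CO2. That fit has 1 dCas9 footprint library, and the mean footprint count of MT-ATP8 in it is 15.3, below the minimum of 20. The ratio of footprint to mRNA CPM of MT-CO1 was 0.113 and 0.0571 in the libraries Cas9 a and c and 0.0604 and 0.155 in dCas9 d and e.

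At 72 h the mRNA of 2 of the 3 counted members was lower with Cas9, against 5.21% of all 10896 tested genes called lower and 0.422% called higher. MT-CO2 mRNA stood at 590 and 821 CPM in Cas9 a and b and at 1279 and 1457 CPM in dCas9 a and b. The groups did not overlap, and MT-CO2 was lower in 4 of 4 pairs of libraries. The log2 change was -0.95 (SE 0.123, edgeR adjusted P = 0.000821), that is, 1.94-fold lower, and ranked 34 from the bottom of all tested genes.

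MT-ATP6 mRNA stood at 149 and 199 CPM with Cas9 and at 237 and 354 CPM with dCas9, again without overlap. It was 1.70-fold lower (log2 change -0.76, SE 0.159, edgeR adjusted P = 0.0126). Across all tested genes, 49.5% had no overlap between nucleases in either direction. When GC content was removed, the calls over all genes changed from 46 higher and 568 lower to 708 higher and 1249 lower, and both members remained lower.

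MT-ATP8 mRNA stood at 11.3 and 15.1 CPM with Cas9 and at 9.91 and 21.0 CPM with dCas9. The groups overlapped, with the dCas9 libraries lying on both sides of the Cas9 libraries. The log2 change was -0.24 (SE 0.237, 95% interval -0.70 to 0.23, adjusted P = 0.638). It was 0.36 without dCas9 b and -0.66 without dCas9 a, each with 1 dCas9 mRNA library left, so 1 library decided its sign. With GC content removed and a replicate block, it was -0.37 and passed (edgeR adjusted P = 0.0181). That fit called 1276 of all 10896 genes lower and 739 higher. The difference in change between MT-ATP8 and MT-ATP6 was not tested by a model.

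The 2 complex I genes counted at 72 h are given beside the members. MT-ND4L mRNA changed by -0.55 (SE 0.175, adjusted P = 0.107) and MT-ND5 mRNA by -0.16 (SE 0.139, adjusted P = 0.582) on the log2 scale, and neither passed. Their footprints changed by 0.47 and 0.41, higher in 4 of 4 pairs of libraries, where 31.8% of all tested genes had no overlap in either direction. Their translational efficiency changed by 1.02 (adjusted P = 0.106) and 0.57 (adjusted P = 0.278), higher in 16 of 16 combinations, again without passing. The combinations reuse the same 2 libraries of each group, and the share of all genes with 16 of 16 was not counted.

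The edgeR model used here shares 1 spread between library types, and the types differed in spread. At 36 h the common dispersion of the counts was 0.0900 in footprint libraries, against 0.0124 in mRNA libraries, and at 72 h it was 0.00574 against 0.0123. With each type fitted alone at 72 h the mRNA of MT-CO2 (adjusted P = 0.0243) and MT-ATP6 (adjusted P = 0.0824) still passed, while the number of genes called fell from 614 to 293.

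Footprints of the same genes at 72 h lay on the other side. MT-CO2 stood at 899 and 948 CPM in Cas9 e and f and at 768 and 701 CPM in dCas9 e and f. MT-ATP6 stood at 388 and 381 CPM with Cas9 and at 294 and 253 CPM with dCas9, and MT-ATP8 at 142 and 129 CPM and at 103 and 98.1 CPM. In all 3 genes both Cas9 libraries lay above both dCas9 libraries, and 31.8% of all tested genes had no overlap between nucleases in either direction.

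The log2 changes in footprints were 0.33 for MT-CO2 (SE 0.124, unadjusted P = 0.0168), 0.49 for MT-ATP6 (SE 0.163, unadjusted P = 0.00831) and 0.43 for MT-ATP8 (SE 0.234, unadjusted P = 0.0873), from edgeR. None passed after adjustment (adjusted P = 1.00 for each), as for all genes, of which 0.0% were called and 397 had an unadjusted P below 0.05. DESeq2 called 0 genes. With footprints fitted alone, where the spread was smaller, MT-ATP6 (adjusted P = 0.00271) and MT-CO2 (adjusted P = 0.0484) passed and MT-ATP8 did not (adjusted P = 0.187), among 3 genes called higher and 1 called lower. The call in footprints therefore depended on which libraries set the spread.

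Translational efficiency at 72 h was higher with Cas9 for 2 of the 3 counted members, against 0.698% of all tested genes called higher and 0.0184% called lower. The ratio of mean footprint to mean mRNA CPM of MT-CO2 was 1.31 with Cas9 and 0.537 with dCas9, a log2 change of 1.29 (SE 0.174, edgeR adjusted P = 0.00874) that ranked 19 from the top. For MT-ATP6 the ratios were 2.21 and 0.926, a log2 change of 1.25 (SE 0.228, edgeR adjusted P = 0.0396) that ranked 21 from the top.

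For MT-ATP8 the ratios were 10.3 and 6.51, with a log2 change of 0.66 (SE 0.333, adjusted P = 0.479). Both called genes were higher in 16 of 16 combinations of libraries and MT-ATP8 in 12 of 16. These combinations reuse the same 2 libraries of each group and are not independent, and the share of all genes with 16 of 16 was not counted. In both called genes the lower mRNA made up the larger part of the change, -0.95 and -0.76 beside 0.33 and 0.49 in footprints.

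The calls in translational efficiency depended on single footprint libraries. MT-ATP6 kept its size (1.15 to 1.36) but not its call when any 1 of them was left out (adjusted P = 0.176 to 0.337). MT-CO2 did so for 3 of the 4, with adjusted P = 0.134 without Cas9 e, 0.182 without Cas9 f and 0.315 without dCas9 f, and stayed called at 0.0907 without dCas9 e. Over all genes, 1 to 3 calls were left in these fits against 78 with every library, while leaving out mRNA libraries gave 29 to 1065, the last without dCas9 mRNA b. For MT-ATP8 the change was 1.08 (adjusted P = 0.00603) without dCas9 mRNA a and 0.07 without dCas9 mRNA b.

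**Figure D4:**
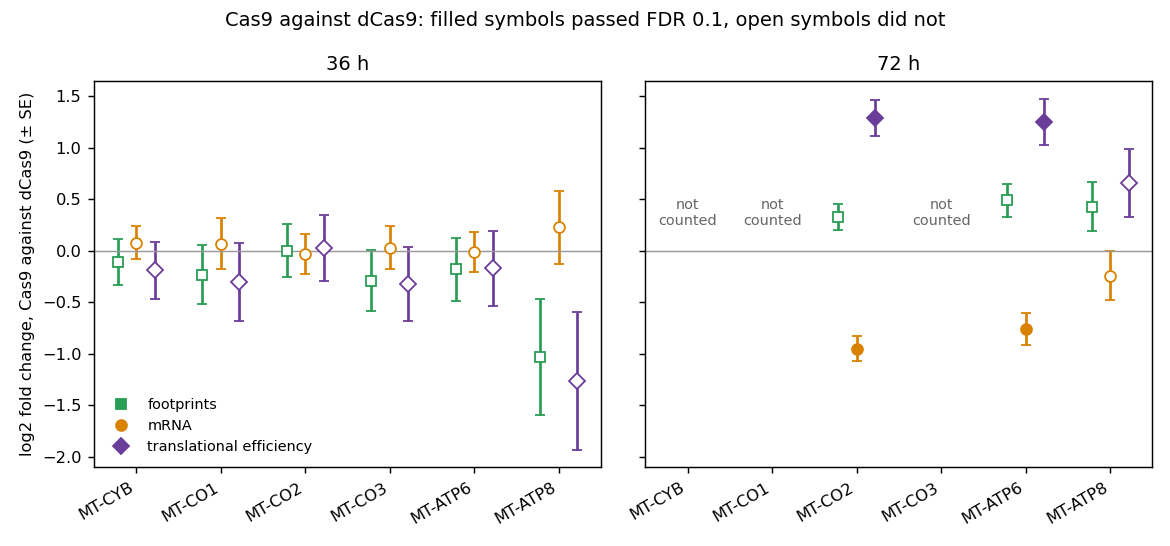
Log2 fold change of Cas9 against dCas9 (± SE) for each gene in footprints (squares), mRNA (circles) and translational efficiency (diamonds) at 36 h (left) and 72 h (right). Filled symbols passed a false discovery rate of 0.1 in the edgeR model with both library types. The filled symbols are the mRNA of MT-CO2 (-0.95) and MT-ATP6 (-0.76) and their translational efficiency (1.29 and 1.25), all at 72 h.

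Whether the change at 72 h differed from that at 36 h was tested in 1 model over all 17 libraries and 8970 genes. For mRNA the change at 72 h minus that at 36 h was -0.92 (SE 0.259, adjusted P = 0.205) for MT-CO2, -0.74 (adjusted P = 0.491) for MT-ATP6 and -0.46 (adjusted P = 0.915) for MT-ATP8. No member passed, against 0.524% of all genes. For translational efficiency the differences were 1.23 (adjusted P = 0.415), 1.38 (adjusted P = 0.450) and 1.71 (adjusted P = 0.617), against 0.0111% of genes called.

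For footprints the differences were 0.32 (adjusted P = 0.838), 0.64 (adjusted P = 0.691) and 1.25 (adjusted P = 0.621), against 0.0223% of genes called. The loss of MT-CO2 and MT-ATP6 mRNA was thus called at 72 h and not at 36 h, but a difference between the times was not shown. This model shares 1 spread over all 17 libraries, the more variable 36 h footprints included. With mRNA fitted alone, MT-CO2 changed by -0.95 (SE 0.147) at 72 h and -0.03 (SE 0.0901) at 36 h. MT-ATP6 changed by -0.76 (SE 0.186) and -0.01 (SE 0.0932). The difference between times was not tested in mRNA alone. Without the dCas9 footprint library d of 36 h the differences in footprints were 0.88 for MT-CO2, 1.35 for MT-ATP6 and 2.29 for MT-ATP8. In translational efficiency they were 1.79, 2.09 and 2.74, and in mRNA that of MT-CO2 was -0.92. This fit has 1 library in that group, and MT-ATP8 footprints at 36 h lie below the count minimum in it. For MT-CO2 mRNA the difference stayed at -0.92 without dCas9 footprint e of 36 h, a library outside the mRNA groups. Without Cas9 mRNA b of 72 h it was -1.17. Each of these fits again has 1 library in a group.

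Shares were taken of the counts on the transcript kept for each gene. In mRNA at 36 h the 6 genes took 1.40%, 1.48% and 1.51% in Cas9 a, b and c. In dCas9 d and e they took 1.497% and 1.31% (exact two-sided permutation P = 0.6, smallest possible 0.2). In footprints they took 0.134% and 0.0821% in Cas9 a and c and 0.0872% and 0.174% in dCas9 d and e (exact P = 0.667). Neither pair of groups was separated. Over every listed transcript the shares were 0.914% to 1.06% in mRNA and 0.0582% to 0.123% in footprints.

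The 3 members counted at 72 h took 0.0776% and 0.108% of mRNA with Cas9 and 0.161% and 0.191% with dCas9, and 0.136% and 0.137% of footprints with Cas9 and 0.111% and 0.0993% with dCas9. These groups were separated in opposite directions, each with exact P = 0.333, the smallest that 2 against 2 libraries allow. Over every listed transcript the mRNA shares were 0.0295% and 0.0409% with Cas9 and 0.0614% and 0.0727% with dCas9, and the footprint shares 0.0543% and 0.0551% with Cas9 and 0.0442% and 0.0399% with dCas9, with the same exact P.

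The nuclear partners of these genes were examined in 7 lists that hold 91 genes. They are subunits of complexes III, IV and V, their assembly factors, and factors for mitochondrial transcription, RNA processing and translation. At 36 h 85 were tested and none passed in mRNA, footprints or translational efficiency, with list medians of mRNA change between -0.08 and 0.05. At 72 h 89 were tested, and in mRNA 3 were called higher and 1 lower, while 77 had a log2 change above 0 against 5755 of all 10896 genes.

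The list medians of mRNA change at 72 h lay between 0.08 and 0.24, beside 0.02 for all genes and -0.76 for the 3 counted members. COX6C, a nuclear subunit of cytochrome oxidase, was higher (112 ± 10.3 CPM with Cas9 and 75.6 ± 7.96 CPM with dCas9, SD, log2 change 0.57, edgeR adjusted P = 0.0103). ATP5PB and ATP5F1A of ATP synthase were higher by 0.34 (adjusted P = 0.0544) and 0.28 (adjusted P = 0.0750), and ATP5F1D was lower by -0.45 (adjusted P = 0.0611). None of the 89 passed in footprints or translational efficiency.

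LRPPRC and SLIRP form the complex that binds and stabilizes mitochondrial messages, and TACO1 activates translation of MT-CO1. At 72 h their mRNA changes were 0.10 (adjusted P = 0.740), 0.17 (adjusted P = 0.436) and 0.03 (adjusted P = 0.925), and their footprint changes were -0.04, 0.01 and 0.02. At 36 h TACO1 footprints changed by 0.56 (adjusted P = 0.460) and LRPPRC footprints by -0.30 (adjusted P = 0.565). Of the HEK293 markers, NEFM (-0.89, adjusted P = 0.0327) and ZIC2 (-0.46, adjusted P = 0.0608) were lower in mRNA at 72 h, while 2 of the 7 tested markers had a change above 0. The 8 markers summed to 909 and 800 CPM with Cas9 and 846 and 730.1 CPM with dCas9, which overlap, and their part in the result was not tested.

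The genes whose level moved most like the mean of the members were found by Pearson correlation of log2 CPM over the 17 libraries, after centring within library type and time. The points share libraries, and the mean covers 6 genes at 36 h and 3 at 72 h. MT-ND5 had r = 0.909 and MT-ND4L r = 0.510, the only other mitochondrial genes tested at both times. Among 8970 genes the most alike nuclear ones were ATP11A (0.916), ERICH1 (0.878), EIF3J (0.856), S100A10 (0.855) and ETV3 (0.854).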

How the data were processed

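Ribosome footprints and mRNA were analysed in 17 libraries. The authors aligned the 36 h reads with hisat2 (HISAT2 2.1.0 in the submitters' processing notes) and GENCODE release 22, and the 72 h reads with tophat and release 25, on GRCh38. They counted reads per transcript with fp-count. The deposited values are raw counts per transcript beside the counted length in codons, which is shorter than the coding sequence by 20 codons, the stop codon not included at 36 h. Which codons were left out is not given in the sources used here.

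Transcripts were matched to GENCODE 44 (25338 of 26679 at 36 h, 94878 of 98334 at 72 h), with 3.74% and 4.22% of counts unmatched, and the transcript with most counts was kept per gene. At 72 h 43611 listed transcripts had no counted length and no counts. The count model was edgeR 4.0.16 in R 4.3.3, with TMM, a quasi-likelihood test, Benjamini-Hochberg adjustment over all tested genes and a false discovery rate of 0.1. It had a mean for each nuclease and library type, each time point was fitted alone, and a gene needed a mean count of 20 in each library type. CPM divide by the TMM-scaled total over tested genes, and log2 CPM used a prior count of 2. SE are the log2 change divided by the square root of F.

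Tests on simulated data recovered nearly all planted changes at 72 h and in mRNA at 36 h, and fewer in footprints and translational efficiency at 36 h. The planted changes were larger than every change of a member between nucleases in the main fits, and all genes had the same spread within a library type. Recovery of changes as small as those of the members was not tested. They also showed that the spread shared by both library types gives P values that are too small for footprints and translational efficiency at 36 h and slightly too small for mRNA at 72 h, and too large for mRNA at 36 h and for footprints at 72 h. Fits of each library type alone did not show this, so their values stand beside the calls in mRNA and footprints at 72 h. Translational efficiency at 72 h was little affected.

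Alternatives were DESeq2 1.42.0, its size factors in edgeR, no count minimum, each library type alone, replicate blocks, nuclear genes only for library size, removal of GC content by loess (span 0.3), and each library left out. Shares and ratios of single values used exact permutation tests (scipy 1.17.1). Named genes are the members, the complex I genes of mitochondrial DNA, up to 2 called genes per list and direction, TACO1, LRPPRC and SLIRP, and the genes most alike. The members and lists were chosen with earlier results of these data known. Gene and protein sequences beyond those shown were not used here.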

Additional observations from a re-analysis of the deposited data

How the results depend on the processing

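Of 176 recomputed numbers of members called, 162 stayed within 1.5 times the number reported. In footprints at 72 h (0 members called) there was 1 with no count minimum, 2 with each library type alone and 1 with GC content removed together with the replicate block. Leaving out single libraries moved the number of members called in footprints and translational efficiency at 36 h and in translational efficiency at 72 h. It also moved that number for the difference between times in all 3 comparisons. Each fit that did so left 1 library in a group, and the number called over all genes moved in it as well.

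At 36 h libraries of both types share letters. Libraries with a shared letter deviated from their group means with correlations of 0.065, 0.017 and 0.011 at 36 h. At 72 h the correlations were -0.14 in mRNA and 0.011 in footprints. The main fits did not use the letters as pairs. Such low values cannot show that libraries of 1 letter are unpaired, as the 36 h footprint libraries varied widely. With the letters as a block at 36 h, 0 of 9016 genes were called in translational efficiency, so no member was. With the replicate block at 72 h the mRNA changes were -0.97 for MT-CO2 and -0.75 for MT-ATP6, 2 members stayed called in mRNA and 2 in translational efficiency, and the footprint to mRNA ratio of MT-CO2 lost its call (-0.06, adjusted P = 0.530, edgeR). Against the fit without a block, it changed no other call of a member. Beside the GC correction it also brought a call for MT-ATP8 mRNA (-0.37, edgeR adjusted P = 0.0181, against 0.11 without the block). There the mRNA calls over all genes went from 1957 to 2015. Without the GC correction, the block took genes called from 614 to 528 in mRNA and from 78 to 88 in translational efficiency. The crossed block, added after the data were seen, gave 1135 and 249.

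Over all genes, mRNA calls at 72 h ranged from 110 without Cas9 mRNA a to 2473 without dCas9 mRNA b, with 793 by DESeq2 size factors, 829 by DESeq2, 886 with no count minimum, 293 with mRNA alone and 1957 with GC content removed. Calls in translational efficiency were 170, 221, 260 and, with GC content removed, 528 (415 higher and 113 lower, beside 76 and 2). At 36 h translational efficiency calls were 474 without dCas9 footprint d, and footprint calls were 918 without it, 323 without Cas9 footprint c and 21 with no count minimum. For MT-ATP8 at 72 h, translational efficiency passed in edgeR with no count minimum (adjusted P = 0.0757) and with GC content removed (adjusted P = 0.0504). It also passed with GC content removed and the replicate block (0.82, edgeR adjusted P = 0.00227), where 651 of all genes were called.

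Some uncalled changes crossed 0. Without single libraries, the changes in footprints at 36 h ran from -0.56 to 0.17 for MT-CYB, -0.77 to 0.41 for MT-CO1, -0.56 to 0.43 for MT-CO2, -0.91 to 0.20 for MT-CO3 and -0.87 to 0.22 for MT-ATP6. Those in mRNA at 36 h ran from -0.10 to 0.27 for MT-CYB, -0.01 to 0.16 for MT-CO1, -0.10 to 0.04 for MT-CO2 and -0.17 to 0.17 for MT-ATP6. Those in translational efficiency at 36 h ran from -0.64 to 0.09 for MT-CYB, -0.84 to 0.34 for MT-CO1, -0.53 to 0.46 for MT-CO2, -0.94 to 0.17 for MT-CO3 and -0.86 to 0.23 for MT-ATP6. The footprint to mRNA ratio at 36 h ran from -0.66 to 0.08 for MT-ATP8 and the mRNA change at 72 h from -0.66 to 0.36 for MT-ATP8. The difference between times ran from -0.10 to 0.88 for MT-CO2 in footprints and from -0.87 to 0.19 for MT-ATP8 in mRNA. With GC content removed MT-CO2 footprints at 36 h changed by 0.04, and by DESeq2 its translational efficiency changed by -0.03.

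The causes were not tested. MT-ATP8 footprints at 36 h had 6 to 52 counts, the fewest of the members.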
